A study of Mus musculus with 9 samples.

Results

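Sox2 encodes a transcription factor of group B of the SOX family, and the mouse line in this study carries a green fluorescent protein reporter named after it. The genes described here are Sox2, the long noncoding RNA gene Sox2ot whose span includes Sox2, the reporter transcript EGFP, and the other group B genes Sox1, Sox3, Sox14 and Sox21. They were taken by name and not by a cut on their levels, though with earlier results of these data known. They are 7 of the 49672 rows of a table in TPM, a measure of transcript abundance per unit of length scaled to the same total in each library. EGFP is an added row with no Ensembl identifier, and the other 6 rows were found by their Ensembl identifiers.

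All cells came from the epidermis of Sox2-GFP mice at postnatal day 0, with no treatment named. GFP-positive cells, labelled Merkel cells, gave 3 libraries, and GFP-negative cells with SCA1 and CD49F on their surface, labelled basal keratinocytes, gave 6. Each of the sample numbers 1 to 3 has 1 Merkel library and 2 basal libraries, called the first and second basal library after their titles, and no label says how these differ. The labels leave unsaid what a number stands for (1 mouse or several), so p-values measure only the spread between numbers. Whether the reporter is a transgene or sits at the Sox2 locus is not given in the sources used here, and the labels name no SCA1 or CD49F gate for the GFP-positive cells.

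SOX proteins bind DNA through a domain called the HMG box. Sox1, Sox2 and Sox3 (group B1) act mainly as activators and are known from stem and neural progenitor cells, and Sox14 and Sox21 (group B2) act mainly as repressors. In mouse skin Sox2 is known from Merkel cells, the touch receptor cells of the epidermis, where it acts upstream of Atoh1, and from dermal papilla cells of some hair follicles. Sox21 is known in mouse for its part in the hair shaft.

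Sox2 lies on chromosome 3 at chr3:34650405-34652461 on the plus strand (mm10), and Sox2ot spans chr3:34104270-34682619 on the same strand. No exon of the 18 annotated Sox2ot transcripts overlaps the Sox2 exon, so that reads of spliced transcripts can be told apart while intronic reads of Sox2ot share the strand of Sox2. A noncoding RNA row of 272 bases, RF01953, lies whole inside exons of Sox2ot and overlaps 11 of its 18 transcripts. Its sequence is shown because it had its own row and was measured in Merkel libraries, as described below. The plus strand of GRCm38 at chr3:34638368-34638639 is given as in the GENCODE M21 transcripts, with capitals on the 22 bases of the mature mmu-miR-1897-3p as RefSeq (GRCm38.p6) places it.
RF01953: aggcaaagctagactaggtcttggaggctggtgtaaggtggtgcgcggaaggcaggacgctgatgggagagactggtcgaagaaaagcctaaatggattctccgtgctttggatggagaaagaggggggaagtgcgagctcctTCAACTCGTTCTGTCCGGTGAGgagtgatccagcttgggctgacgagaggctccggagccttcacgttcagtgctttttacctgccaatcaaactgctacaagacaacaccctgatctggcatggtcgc

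The promoter of Sox2 is shown because Sox2 is the gene that the reporter is named after and was nearly silent in basal libraries. The sequence is the 250 bases before the RefSeq start, which lies upstream of the start given above, chr3:34649745-34649994 on the plus strand (GRCm38.p6), with the matches to the motifs searched in capitals.
Sox2 promoter: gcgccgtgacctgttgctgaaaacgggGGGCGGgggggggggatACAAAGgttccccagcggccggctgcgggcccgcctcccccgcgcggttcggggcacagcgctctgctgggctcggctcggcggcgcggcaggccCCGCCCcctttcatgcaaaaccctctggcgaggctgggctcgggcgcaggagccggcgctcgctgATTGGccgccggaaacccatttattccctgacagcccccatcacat

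Searched on both strands, this window held 2 GC boxes (GGGCGG), 1 CCAAT box (CCAAT) and 1 SOX core (ACAATG or ACAAAG), which 32.7%, 33.8% and 25.2% of 32851 mouse promoter windows of the same length held. It had 0 matches to the TATA box (TATAAA), the E-box (CANNTG) and the octamer (ATGCAAAT), held by 12.4%, 66.2% and 1.6% of windows. The Sox21 window had 0 matches to any of the 6, and those of Sox1 and Sox14 held 3 GC boxes and 1 CCAAT box each, with 1 E-box in that of Sox14. The Sox2 window was 72.0% G and C, against a median of 52.4% over all windows.

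The libraries held between 13012 and 13649 genes at 1 TPM or more, and TPM keeps no read depth. Mitochondrial genes and small or structural RNAs took 43.08% to 53.43% of the total in the 3 Merkel libraries, against 40.63% to 46.07% in the 6 basal ones. Over all tested genes 938 (6.79%) were called higher and 729 (5.27%) lower in Merkel libraries, a split that was 1062 and 454 with median-ratio scaling. All 12 genes on a list of Merkel cell markers were higher in Merkel libraries, with a summed level of 1071 to 1418 TPM against 2.77 to 6.10 in basal libraries. All but Krt8 passed the filter on low values only through Merkel libraries, so this count is a description of the sort. Of 11 basal keratinocyte markers 8 were lower, and limma called 0 higher (also 0 when p was left unadjusted), and their sum was still 6176 to 7187 TPM in Merkel libraries against 15287 to 20144.

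Sox2 transcript was measured in all Merkel libraries and was at or near 0 in all basal libraries. It was at 52.35, 44.89 and 53.11 TPM in Merkel libraries 1, 2 and 3. It was at 0.12, 0 and 0.11 TPM in the first basal libraries and at 0.16, 0 and 0.10 in the second, and both basal libraries of number 2 are listed at 0. The groups lay far apart, and the mean of the basal libraries was 0.153% (first) and 0.173% (second) of the Merkel mean. The limma fit across 13822 tested genes gave a log2 fold change of 5.56 ± 0.13 (SE) on the log2(TPM + 1) scale, adjusted p = 2.55e-08, and 13 genes had a larger one. Since cells were sorted on the reporter, this difference checks the sort and is not a finding, and Sox2 passed the filter on low values only through its Merkel level.

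**Figure D1:**
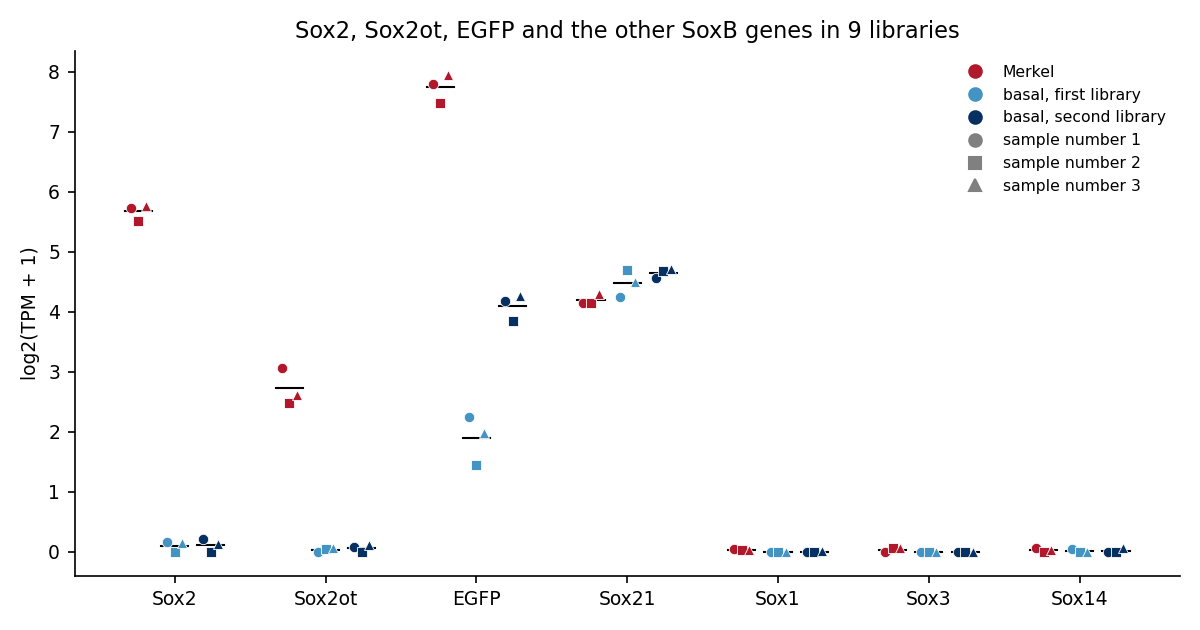
Level of Sox2, Sox2ot, EGFP and the other group B Sox genes on the log2(TPM + 1) scale, in 3 Merkel libraries, 3 first and 3 second basal libraries. Points are libraries, with the shape giving the sample number, and bars are group means. Sox2 and Sox2ot are at or near 0 in basal libraries, EGFP forms 3 separate levels, Sox21 is measured in all 9 libraries, and Sox1, Sox3 and Sox14 are near 0 throughout.

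The reporter transcript EGFP followed the sort but was not absent from the GFP-negative libraries. It was at 221.91, 178.26 and 246.8 TPM in Merkel libraries 1, 2 and 3. It was at 3.72, 1.73 and 2.96 TPM in the first basal libraries and at 17.1, 13.43 and 18.29 in the second. These 3 groups did not overlap, and every second basal library lay above every first one for 17.6% of tested genes. Library 2 was the lowest of each group. In Merkel libraries EGFP was 4.24, 3.97 and 4.65 times the level of Sox2 per unit of length, a mean ratio of 4.29 ± 0.34 (SD, n = 3). The EGFP log2 fold change against basal keratinocytes was 4.75 ± 0.18 (SE, limma adjusted p = 3.04e-07). It was smaller than that of Sox2, whose change this scale understates because its basal level is near 0. Against the first basal libraries alone EGFP had 5.86 and Sox2 5.57, and against the second alone 3.65 and 5.55. Those fits, in which 7.46% and 6.46% of tested genes were called higher, share their Merkel libraries. Of the 7 genes 4 were tested in Merkel against basal and 3 were called higher, beside a background of 6.79% of tested genes called higher, and with the sort behind the choice nothing is read from that count.

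EGFP differed between the first and second basal libraries, although both are labelled GFP-negative. The second library had 4.60, 7.76 and 6.18 times the EGFP level of the first in numbers 1, 2 and 3. The log2 difference was 2.21 ± 0.23 (SE, n = 3 against 3), with limma adjusted p = 0.00505 over the same 13822 genes, and 14 genes had a larger one. In that comparison 0.629% of tested genes were called higher and 2.92% lower. The exact two-sided permutation test of EGFP alone gave p = 0.10, the smallest that 3 libraries against 3 allow. That test shuffled the libraries freely and took no account of their shared sample numbers. Sox2 itself differed by 0.01 ± 0.08 (adjusted p = 0.955) and Sox2ot by 0.03 ± 0.06 (adjusted p = 0.825), at levels where 2 decimals of TPM leave little resolution.

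Set against the Merkel mean, EGFP was at 1.30% ± 0.466 (SD, n = 3) in the first and 7.55% ± 1.18 in the second basal libraries. Of the 12 Merkel cell markers, 11 had a mean of 0.619% or less in the second basal libraries, and all but Piezo2 lay at 0.567% or less in the first. Piezo2, which encodes a mechanically gated ion channel, was the exception at 2.97% in the first and 9.50% in the second. Atoh1, the transcription factor that Merkel cells need to form, was at 0.219% and 0.077%, and the hormone gene Cck at 0.160% and 0. Between second and first basal libraries limma called 0 of the 12 Merkel markers in either direction, with 1 higher and 1 lower at an unadjusted p under 0.05. Whether EGFP differs from these genes in this respect was not tested.

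Markers of some other cells also differed between the basal libraries, where 0.629% of tested genes were called higher and 2.92% lower in the second. Most melanocyte genes were higher in the second libraries, as EGFP was, while the immune genes went the other way. Of 8 melanocyte genes 7 were called higher in the second libraries, and their summed level was 113 to 164 TPM there against 16.7 to 36.8 in the first. Dct, a pigment enzyme, was at 53.14, 68.29 and 47 TPM in the second libraries against 10.01, 14.71 and 5.54 in the first (log2 difference 2.44, limma adjusted p = 0.00853). Of 13 tested dermal papilla and fibroblast genes 2 were called higher, the collagen gene Col1a2 (7.99 ± 1.29 against 2.25 ± 0.43 TPM) and the proteoglycan gene Vcan (18.9 ± 2.17 against 7.14 ± 0.648), while the papilla gene Corin was at 0.12 TPM in both. The sum of 6 immune genes was 598 to 992 TPM in the first and 39.3 to 239 in the second libraries, and Csf1r and Ptprc were called lower in the second. Of 9 hair follicle genes 2 were called higher in the second libraries, Lhx2 (log2 difference 1.11, adjusted p = 0.0465) and Edar (1.54, adjusted p = 0.0224). The hair keratin genes Krt25 and Krt71 had differences of -0.99 and -1.15 (adjusted p = 0.0535 and 0.0503), and with median-ratio scaling the count for that list was 1 higher and 2 lower. Of the basal and suprabasal keratinocyte markers 0 were called by limma, with 1 higher and 1 lower at an unadjusted p under 0.05, and the basal markers summed to 15287 to 17344 TPM in the second and 19078 to 20144 in the first libraries. Transcripts per cell and numbers of cells of a type cannot be told apart in bulk samples. The part of these cells in the EGFP difference was not tested.

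**Figure D2:**
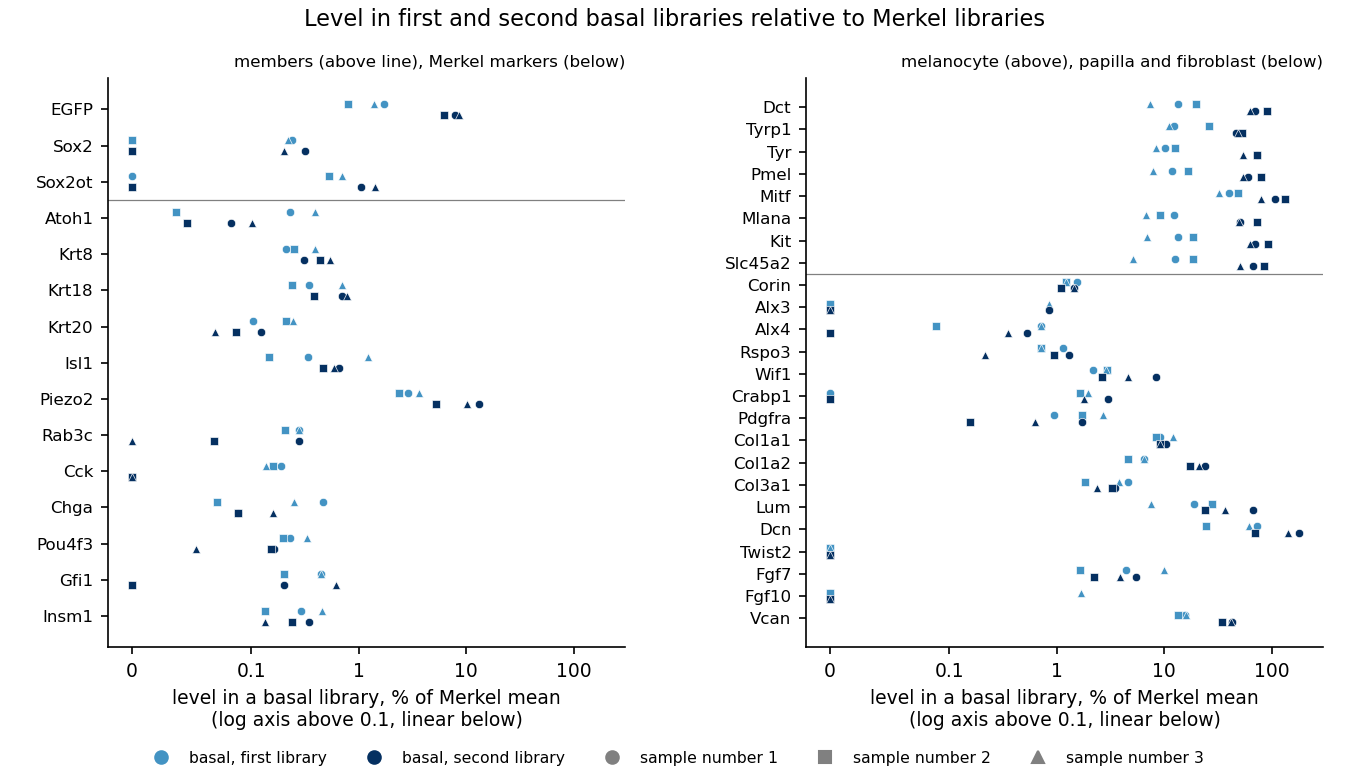
Level in each of the 6 basal libraries as a percent of the mean Merkel level, on an axis that is logarithmic above 0.1 and linear below it. The left panel holds EGFP, Sox2 and Sox2ot over 12 Merkel cell markers, and the right panel 8 melanocyte markers over 16 dermal papilla and fibroblast markers. EGFP averages 1.30% in the first and 7.55% in the second basal libraries, Sox2 stays at 0.319% or less in each, and the melanocyte markers have a median of 12.5% in the first and 67.0% in the second.

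The same lists were read in Merkel libraries, because the GFP-positive gate takes any cell with the reporter. Over all tested genes 6.79% were called higher and 5.27% lower in Merkel libraries, and 6.46% higher against the second basal libraries alone. Dermal papilla and fibroblast genes summed to 263 to 376 TPM in Merkel libraries against 43.2 to 276 in basal libraries, and 12 of 13 tested were called higher, including Rspo3 (13.9 ± 1.51 TPM against 0.117 ± 0.0525), Wif1 (16.5 ± 0.280 against 0.648 ± 0.207) and Corin (9.06 ± 1.10 against 0.12 ± 0.015). Rspo3 and Wif1 encode secreted modulators of WNT signalling. These 3 genes lay below 1 TPM on average in basal libraries and passed the filter only through Merkel libraries. The exception was Dcn, the most abundant gene of the list, at 135 ± 38.7 against 124 ± 54.6 TPM (adjusted p = 0.476). Melanocyte genes summed to 160 to 227 TPM in Merkel libraries, with 6 of 8 called higher than in basal keratinocytes and 0 of 8 by limma against the second basal libraries alone, where 5 were higher at an unadjusted p under 0.05. Of 12 Schwann cell genes 6 were tested and 1, S100b, was called higher, while Erbb3, the most abundant, was at 38.3 ± 5.15 against 36.7 ± 4.04. Of 5 endothelial genes 1 was tested, Pecam1, at 1.76 ± 0.433 TPM in Merkel and 0.408 ± 0.0785 in basal libraries (0.97 ± 0.15, adjusted p = 0.000917), short of a call, though called against the second basal libraries (1.08) and with median-ratio scaling (1.06). Pecam1 passed the filter only through Merkel libraries. Kdr was at 0.15 to 0.57 TPM in Merkel, 0.44 to 0.88 in first and 0.02 to 0.04 in second basal libraries. Cdh5, Emcn and Tie1 were at 0.03 TPM or less in Merkel and second basal libraries, and reached 0.1, 0.02 and 0.13 in first basal libraries. Of the 9 hair follicle genes 1, Lhx2, was called higher in Merkel libraries, at 24.1 ± 8.17 against 11.9 ± 3.19 TPM, with 5 higher at an unadjusted p under 0.05, and 0 were called against the second basal libraries. Of 5 tested immune genes Csf1r and Ptprc were called lower in Merkel libraries, and against the second basal libraries limma called 0, also 0 when p was left unadjusted. How much Sox2 or EGFP transcript came from cells other than Merkel cells was not tested.

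Merkel library 2 had the lowest level of Sox2, EGFP and Sox2ot, and also the highest share of small and mitochondrial RNA, 53.43%. With those genes removed and TPM rescaled to the former total, Sox2 was at 96.47, 96.39 and 93.30 TPM in Merkel libraries 1, 2 and 3, and its coefficient of variation fell from 9.06% to 1.89%. For EGFP that coefficient fell from 16.1% to 6.22%, with 408.93, 382.77 and 433.57 TPM. For Sox2ot it was 25.45% before and 22.1% after, with library 1 the highest both times. EGFP in the second basal libraries was at 7.19% of the Merkel mean on the rescaled values and at 6.58% with median-ratio scaling.

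**Figure D3:**
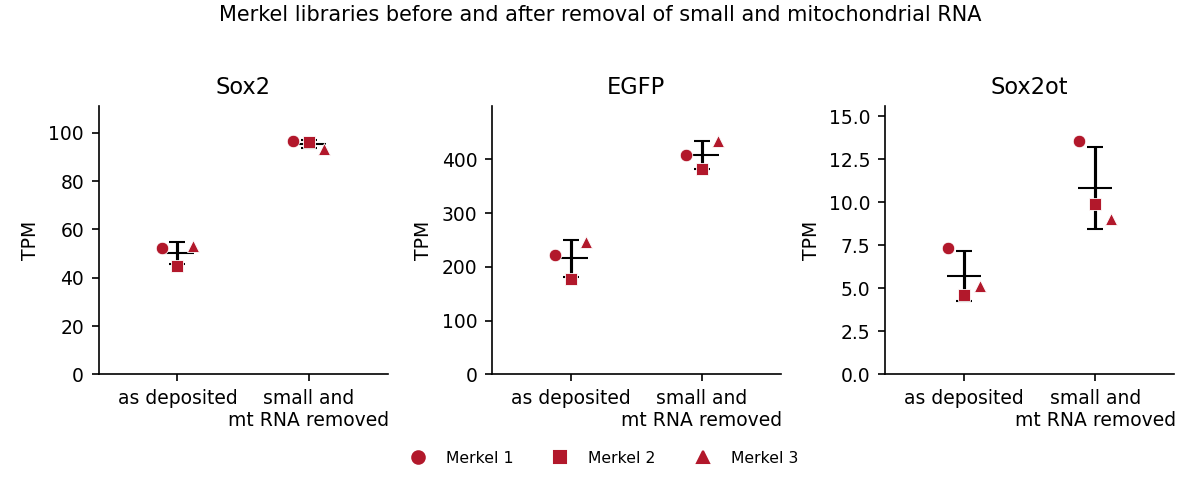
TPM of Sox2, EGFP and Sox2ot in the 3 Merkel libraries, as deposited and after removal of small and mitochondrial RNA genes with rescaling to the former total. Points are libraries, and the bar and whiskers are the mean ± SD (n = 3). The Sox2 libraries come to lie within 93.30 to 96.47 TPM after rescaling, while Sox2ot library 1 stays above the others.

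Sox2ot was transcribed in Merkel libraries at a lower level than Sox2. It was at 7.35, 4.61 and 5.15 TPM in Merkel libraries 1, 2 and 3, and at 0, 0.03 and 0.04 in the first and 0.06, 0 and 0.08 in the second basal libraries. Every Merkel library lay above every basal library, as 11.7% of tested genes did. Its log2 fold change was 2.67 ± 0.16 (SE, limma adjusted p = 4.68e-06), on a scale that understates the change of a gene near 0, and it too passed the filter only through Merkel libraries. In Merkel libraries the level of Sox2 was 9.06 ± 1.70 times that of Sox2ot per unit of length (SD, n = 3), from 7.12 in library 1 to 10.3 in library 3. The row RF01953 inside Sox2ot was at 13.74, 12.92 and 17.67 TPM in Merkel libraries and listed at 0 in each basal library. It stood above Sox2ot as a whole, reads in it may be divided between both rows, and Mir1897, whose hairpin it contains, was listed at 0 in all libraries.

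Around Sox2, the calls were those of Sox2, Sox2ot and RF01953, which all passed the filter only through Merkel libraries, so the count of calls is a description. Of 40 annotated rows within 1 Mb of its start 23 were listed at 0 in every library and 9 were tested, with 3 called higher and 0 lower by limma, while 3 of the 9 had an unadjusted p under 0.05 in the downward direction. Of these 3, Ttc14 was at 12.96, 12.63 and 14.67 TPM in Merkel libraries, against 19.48 to 24.54 in the 6 basal ones, with a log2 fold change of -0.71 ± 0.12 (adjusted p = 0.00192) that falls short of a 2-fold change. The others, Gm43667 and Gm43668, had log2 fold changes of -0.31 and -0.29 (adjusted p = 0.0835 and 0.0846), and Gm43078, listed at 0 in several libraries of each cell type, had -0.60 ± 0.50 (adjusted p = 0.373). Fxr1, an RNA-binding protein gene, was at 60.55, 39.79 and 53.77 TPM in Merkel and 38.77 to 62.44 in basal libraries (-0.05 ± 0.19, adjusted p = 0.859). Dnajc19, a gene of the mitochondrial inner membrane, was at 52.1, 37.55 and 60.53 TPM in Merkel and 36.39 to 48.24 in basal libraries (0.16 ± 0.18, adjusted p = 0.526). Fxr1 and Dnajc19 overlap on opposite strands. The predicted rows nearest to Sox2, Gm42692 and Gm42693, reached 0.40 and 0.96 TPM at most, both in Merkel libraries.

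**Figure D4:**
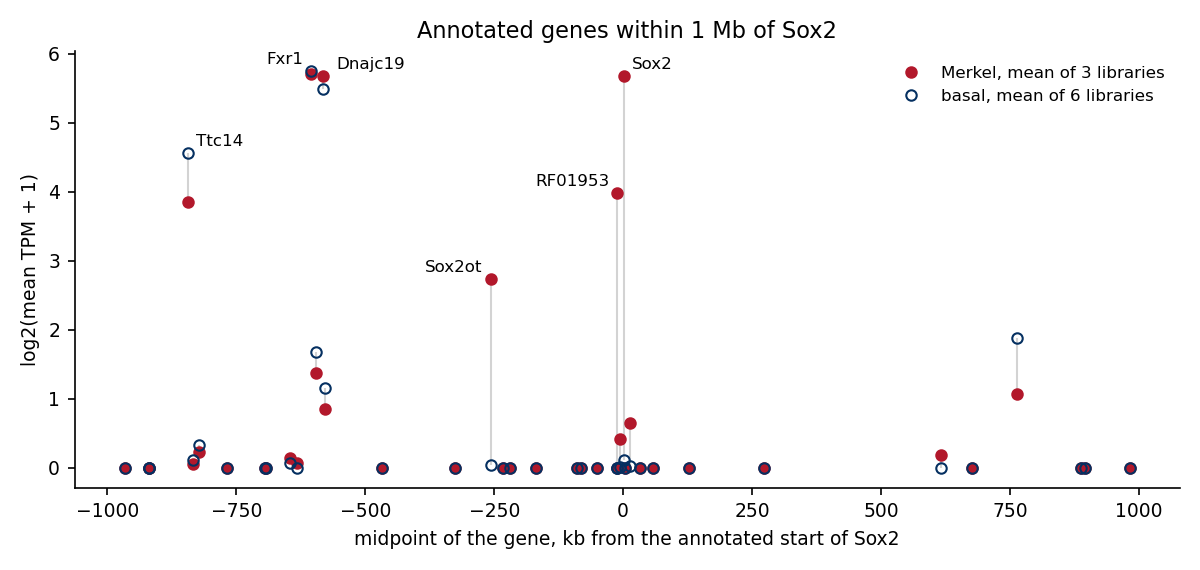
Mean level, as log2(mean TPM + 1), of the 40 annotated rows within 1 Mb of the start of Sox2, against the distance of each row's midpoint from that start in kb. Filled points are the mean of 3 Merkel libraries and open points that of 6 basal libraries, joined by a line. Sox2, Sox2ot and RF01953 are high in Merkel libraries only, while Fxr1 and Dnajc19 lie at about the same level in both.

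Sox21 was the only group B gene at 1 TPM or more in libraries of both cell types. It was at 16.65, 16.66 and 18.73 TPM in Merkel libraries 1, 2 and 3. It was at 18.06, 25.02 and 21.68 TPM in the first basal libraries and at 22.66, 24.69 and 25.14 in the second. Merkel library 3 lay above the first basal library of number 1, and otherwise Merkel libraries lay below basal ones. The log2 fold change of Sox21 was -0.37 ± 0.12 (SE, limma adjusted p = 0.0378), short of the 2-fold needed for a call and beside a median of -0.15 over all tested genes. With median-ratio scaling, which moves that median to 0.01, it was -0.20 (adjusted p = 0.186), and over all alternatives the adjusted p ran from 0.0138 to 0.20. In Merkel libraries Sox2 was therefore the most abundant group B gene per unit of length and Sox21 the next, with no overlap, and in basal libraries Sox21 stood above Sox2 in all 6. Keratinocyte transcripts were also measured in Merkel libraries, where 7 suprabasal markers summed to 7013 to 11525.5 TPM. Their sum was 6850 to 10795 in the first and 7646 to 11140 in the second basal libraries. In Merkel against basal limma called 0 of the 7, also 0 when p was left unadjusted. How much of the Sox21 level in Merkel libraries came from Merkel cells was not tested.

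Sox1, Sox3 and Sox14 were near 0 everywhere and were not tested. Sox1 was at 0.03, 0.02 and 0.02 TPM in Merkel libraries, at 0.01 in 1 basal library and listed at 0 in the other 5. Sox3 was at 0, 0.04 and 0.04 TPM in Merkel libraries and listed at 0 in all basal ones. Sox14 was at 0.04, 0 and 0.02 TPM in Merkel libraries and reached 0.04 in basal libraries. Their order does not go beyond the last decimals of the table.

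Among the other 15 Sox genes 10 were tested, 2 were called higher in Merkel cells and 2 lower, with a median log2 fold change of 0.33 against -0.15 over all tested genes. Background calls were 6.79% higher and 5.27% lower. Sox13, of group D, was at 16.42, 9.71 and 14.31 TPM in Merkel libraries, against 2.22 to 5.48 TPM in the 6 basal ones (1.65 ± 0.19, limma adjusted p = 0.00021). Sox18, of group F and known from endothelium and also from the mouse dermal papilla, was at 8.42, 3.64 and 4.87 TPM in Merkel libraries, against 0 to 0.64 TPM in the 6 basal ones (2.27 ± 0.26, adjusted p = 0.000212). Every Merkel library lay above every basal library for both genes, as 11.7% of tested genes did. Sox18 passed the filter only through Merkel libraries, and with a filter at 5 TPM it was not tested and 1 Sox gene was called higher.

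Sox6 and Sox15 went the other way. Sox6, of group D, was at 10.54, 10.09 and 10.16 TPM in Merkel libraries, against 32.42 to 49.20 TPM in the 6 basal ones (-1.83 ± 0.13, limma adjusted p = 1.13e-05). Sox15, of group G, was at 6.86, 5.58 and 7.81 TPM against 14.17 to 22.95 (-1.32 ± 0.15, adjusted p = 0.000201). Every Merkel library lay below every basal library for both, as 26.2% of tested genes did. Sox4, of group C, had the highest level of the 15 in each Merkel library, 71.9 ± 14.3 TPM on average against 69.1 ± 14.6 in basal libraries (0.14 ± 0.20, adjusted p = 0.62). That basal mean joins 47.06 ± 11.39 TPM in the first and 91.15 ± 17.92 in the second libraries (0.95 ± 0.22, limma adjusted p = 0.0555). The log2 fold change was 0.61 against the first and -0.34 against the second basal libraries.

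Sox9 and Sox10, of group E, were the 2 of these 10 tested Sox genes that limma called between the basal libraries. At an unadjusted p under 0.05, 5 of the 10 were higher and 1 lower in the second libraries. Sox10, known from melanocytes and Schwann cells, was at 0.82, 1.08 and 0.45 TPM in the first and 5.54, 5.97 and 4.47 in the second basal libraries, a log2 difference of 1.84 ± 0.17 (limma adjusted p = 0.00505). Sox9, known from hair follicle epithelium, was at 5.18, 4.63 and 4.63 against 15.46, 8.84 and 12.39 TPM (1.16 ± 0.20, adjusted p = 0.0187). The Sox9 call was lost in 4 of 6 fits that left out 1 library, with adjusted p from 0.0561 to 0.0949: without second basal library 1 or 3, or without first basal library 1 or 3. It was also lost with no filter on low values (adjusted p = 0.0722). In Merkel libraries Sox10 was at 6.36, 3.03 and 3.78 TPM and Sox9 between 8.86 and 12.84. Against all basal libraries neither was called (0.65 and 0.44), and the first basal libraries alone gave called differences of 1.56 and 1.02, and the second alone -0.27 and -0.14.

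**Figure D5:**
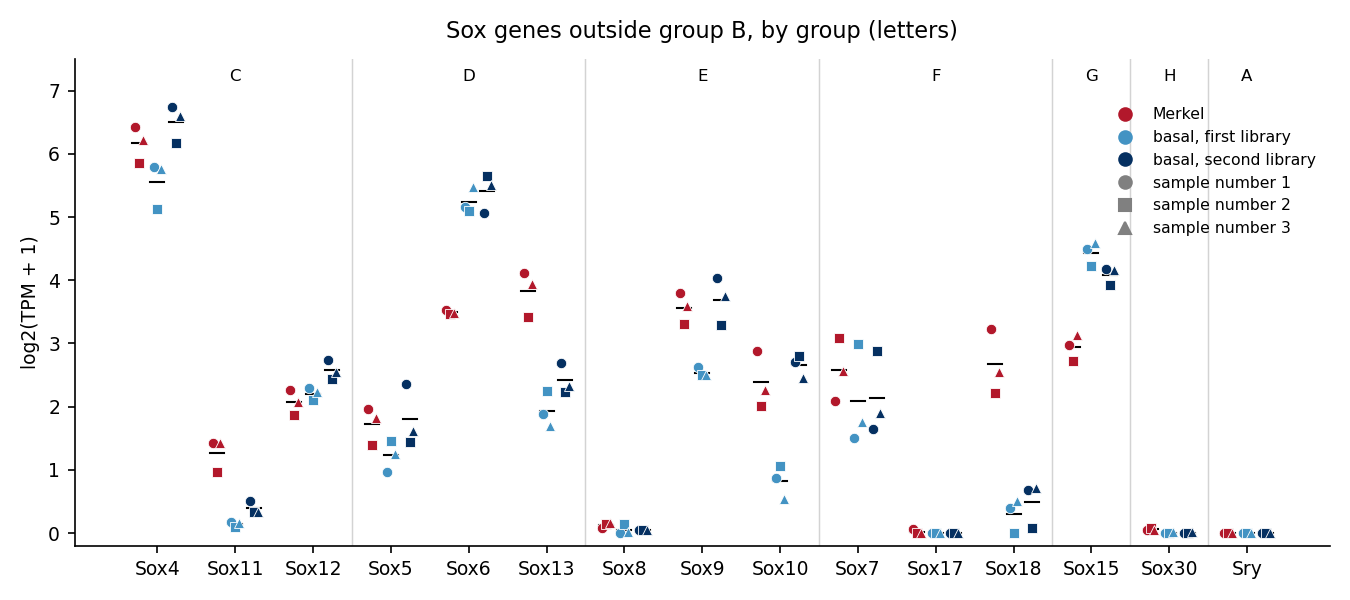
Level of the 15 Sox genes outside group B on the log2(TPM + 1) scale, with the letters above giving their group. Points are libraries, bars are group means, and the shape gives the sample number. Sox13 and Sox18 lie higher and Sox6 and Sox15 lower in Merkel libraries, and Sox10 lies lowest in the first basal libraries.

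A list of 20 genes of SOX2 partners and of stem and progenitor cells was described in the same way. Of these 8 were tested, 3 were called higher and 0 lower by limma, where 3 had an unadjusted p under 0.05 in the downward direction, beside the 6.79% and 5.27% of all tested genes. The 3 called passed the filter on low values only through their Merkel level, and Atoh1 and Isl1 are also on the Merkel marker list, so nothing is read from the count. It was 5 with small and mitochondrial RNA removed. The 3 were Atoh1 at 108 ± 11.6 TPM against 0.16 ± 0.110, the LIM homeobox gene Isl1 at 55.78, 36.45 and 50.73 TPM against 0.27 ± 0.146, and the homeobox gene Prox1 at 11.2 ± 2.15 against 0.105 ± 0.020. Chd7, a chromatin remodeller known to bind SOX2, was at 7.18 ± 1.11 against 3.25 ± 0.510 TPM (0.97 ± 0.15, adjusted p = 0.00112), just short of a call, and it passed under some alternatives, with values from 0.69 to 1.25. Klf4 and Myc, used with Sox2 to reprogram cells, had log2 fold changes of -0.65 ± 0.13 and -0.83 ± 0.12 (adjusted p = 0.00339 and 0.000689) that stay under 2-fold. The pluripotency genes Pou5f1 and Nanog were at 0.23 TPM or less in each library. Pax6 was at 0.79, 1.53 and 4.0 TPM in Merkel libraries and at 0.43 or less in basal libraries, and was below the level for testing.

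The genes most like Sox2 across the 9 libraries, by Pearson's r of log2(TPM + 1) among 7721 candidates whose mean reached 10 TPM in some group, were Insm1 and Rab3c (r = 0.9997 each), Kcna4 (0.9994), Spock1 (0.9993) and Krt20 (0.9992). In all, 201 candidates reached 0.95. The genes most like Sox2ot were Lamc3, Chgb, Alx4, Scg3 and Defa24, with r from 0.9976 to 0.9985. These too were near 0 in basal libraries, and the same limit holds. Defa24 belongs to a family of near-identical copies and its level is uncertain.

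The genes most like EGFP were Col1a2 (r = 0.9975), the growth factor gene Mdk (0.9953), the collagen-modifying enzyme gene Plod2 (0.993), Dbn1 and Zfp428 (0.9912 each). Like EGFP, Mdk had 3 levels, 19.7 ± 1.42 TPM in Merkel, 1.35 ± 0.638 in first and 4.33 ± 0.627 in second basal libraries. For Sox21 the candidates were Exosc8 (0.9816), Tnks1bp1, Kntc1, Tinf2 and Taf2 (0.9688). These correlations are descriptions over libraries that share sample numbers and a fixed total.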

How the data were processed

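RNA from 9 libraries was measured as TPM per gene, deposited by the authors in 1 table with 2 decimals; per the submitters' processing notes Trimmomatic, STAR and RSEM were used on mm10. Their versions, the annotation and the strand setting are not stated in those notes, and TPM keeps no depth, so no counting interval is given. Symbols and positions come from GENCODE M21 (GRCm38): 49326 of 49671 identifiers matched without their version.

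Values were taken as log2(TPM + 1), and each number's pair of basal libraries was averaged after the log. Of the resulting 6 values per gene, 3 had to reach 1 TPM, which left 13822 genes for a two-sided limma test (version 3.58.1, R 4.3.3, trended variance prior), Benjamini-Hochberg adjusted over all. Genes were called at an adjusted p below 0.05 when the log2 fold change also reached 1 in either direction. Second and first basal libraries were compared in the same way on the same genes. Basal means ± SD are over 3 numbers. The fit was tested on simulated data. Plots used Python 3.11.15, pandas 2.3.3 and matplotlib 3.10.9.

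The members, lists and tests were chosen with earlier results of these data known. Named genes are the members, tested genes within 1 Mb of Sox2, the leading called genes of each list, and the 5 genes most like each measured member; other list genes and nearby rows given beside a count, such as Sox4, Sox9, Sox10, Chd7, Klf4, Myc and Pax6, were chosen after their values were seen.

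Samples of the same number deviated together (r of deviations 0.202 to 0.385 between Merkel and basal values, and 0.376 to 0.532 between second and first basal libraries), so the numbers were taken to pair the samples, and a fit with the number as a block was run beside the main one.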

Additional observations from a re-analysis of the deposited data

How the results depend on the processing

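Under 17 alternatives Sox2 and EGFP, and under 16 Sox2ot, remained called higher in Merkel cells; under 15 alternatives EGFP remained called higher in second than in first basal libraries (1.99 to 2.55, adjusted p 0.00277 to 0.04). With the sample number as a replicate block the genes higher and lower numbered 960 and 759 in Merkel against basal, with 103 and 444 in second against first basal libraries, EGFP had adjusted p = 0.00908 in the latter, and no call of a gene recomputed here and no count of the Sox or SOX2 partner lists changed. Genes higher and lower in Merkel cells were 938 and 729, but 486 and 449 with a filter at 5 TPM, with 1281 lower at a pseudocount of 0.1, and 1062 and 454 with median-ratio scaling, and leaving out 1 number gave 877 to 1007 and 594 to 870. In second against first basal libraries 87 were higher and 404 lower, but 181 higher at a pseudocount of 0.1, 43 and 215 with no filter, and 130 lower at 5 TPM; leaving out 1 library gave 48 to 120 higher and 209 to 486 lower, with shifts over 1.5 times without second basal library 1 (247 lower) or 3 (51 and 209) and without first basal library 3 (48 and 229).

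Values that turned sign were all uncalled. Sox2 in second against first basal libraries was -0.0028 with quantile normalization, -0.04 (-0.0398) without first basal library 2 and -0.0359 without second basal library 1, and ran from -0.0398 to 0.0711 over libraries left out. Fxr1 was 0.13 (median-ratio), 0.10 (quantile), 0.041 (small and mitochondrial RNA removed), and -0.2007 to 0.12 over samples left out, positive without Merkel library 2 or basal number 1. Sox4 was -0.34 when set against the second basal libraries, and -0.0522 to 0.2947 over samples left out, negative without basal number 2; Sox9 and Sox10 were -0.14 and -0.27 against the second basal libraries alone. Sox10 was called higher at a pseudocount of 0.1 (1.01). Of the other Sox genes 2 were called higher in Merkel cells, but 1 at 5 TPM and 4 against the first basal libraries; in second against first basal libraries 2 were, but 1 with no filter or at 5 TPM. RF01953 counts as a small RNA and drops out where those are removed. The cause of these changes was not tested.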
